A study of Mus musculus with 12 samples.

Results

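Angptl2, Wnt10b, Ms4a3 and F630028O10Rik are 4 of the 56748 genes in the table of read counts, and all 4 were among the 14794 genes with enough reads to test. They were chosen by the measured difference between cells carrying ETV6 I209S P214L and cells carrying ETV6 WT, so values of that contrast describe them and no test is drawn from it. RNA was sequenced from Ba/F3 cells, an interleukin-3 (IL-3)-dependent mouse line that the labels describe as pro-B cells. Every library came from cells with NRAS G12D, an activated form of the signalling protein NRAS, placed by sorting in IL-3-free medium (day 0) and collected at day 3. The 4 groups, with 3 libraries each, carried ETV6 I209S P214L, ETV6 WT, ETV6 P214L or ZsGreen alone, and each ETV6 construct was linked to ZsGreen, a green fluorescent protein, by an internal ribosome entry site. The study asked whether I209S, which breaks a nuclear export signal that P214L creates, returns the transcriptome to that of the wild-type protein. The promoter of the constructs and the origin of the 3 libraries of a group, whether separate cultures or not, are not given in the sources used here, so p-values measure only the spread between these libraries. In bulk RNA, a change in the number of expressing cells and a change in RNA per cell cannot be told apart.

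ETV6 is a transcription factor of the ETS family. It represses transcription through DNA sites built around the letters GGAA and is needed for normal blood cell formation. Angptl2 encodes a secreted angiopoietin-like glycoprotein that in mice binds the immune receptor PIRB and is recognised by integrins. Wnt10b encodes a secreted Wnt ligand of the kind that binds Frizzled and LRP receptors, stabilises beta-catenin and so activates TCF and LEF factors. Ms4a3 encodes a four-pass membrane protein made by granulocyte-monocyte progenitors. In human cells it binds the cell cycle phosphatase CDKN3 and promotes uptake of the common beta chain shared by the IL-3 and GM-CSF receptors. F630028O10Rik is a long non-coding RNA gene that spans Mir223, the gene of miR-223, a microRNA abundant in myeloid cells.

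The mature miR-223 arms are shown because F630028O10Rik is the only member whose span holds a microRNA. The capitals mark the seed, bases 2 to 8, by which a microRNA pairs with its targets. Both sequences are from RefSeq, build GRCm38.p6, chromosome X, plus strand.
mmu-miR-223-5p: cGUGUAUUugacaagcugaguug
mmu-miR-223-3p: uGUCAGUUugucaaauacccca
The 2 arms have different seeds. In the deposited table the Mir223 gene lies at chromosome X, 95286423 to 95286532 (mm39), on the same strand as F630028O10Rik and 2925 bases from its start. It had a count of 0 in all 12 libraries. These libraries were made from poly-A RNA, so the mature microRNA was not measured.

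The promoters are shown because ETV6 binds sites with a GGAA core and because 2 of the genes were higher and 1 lower in both ETV6 WT and I209S P214L cells than in ZsGreen cells. Each sequence is the 250 bases before the gene's start in RefSeq, build GRCm38.p6, written 5′ to 3′ on the gene's strand. Capitals mark GGAA and its reverse complement TTCC. The positions are chr2:33215711-33215960 on the plus strand for Angptl2, chr15:98778151-98778400 on the minus strand for Wnt10b, chr19:11640852-11641101 on the minus strand for Ms4a3 and chrX:96239676-96239925 on the plus strand for F630028O10Rik.
Angptl2: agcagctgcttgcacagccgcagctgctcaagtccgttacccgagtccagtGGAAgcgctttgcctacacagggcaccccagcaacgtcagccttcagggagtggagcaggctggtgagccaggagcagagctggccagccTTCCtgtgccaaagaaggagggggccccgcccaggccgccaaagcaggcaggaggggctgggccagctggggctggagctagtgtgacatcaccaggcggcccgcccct
Wnt10b: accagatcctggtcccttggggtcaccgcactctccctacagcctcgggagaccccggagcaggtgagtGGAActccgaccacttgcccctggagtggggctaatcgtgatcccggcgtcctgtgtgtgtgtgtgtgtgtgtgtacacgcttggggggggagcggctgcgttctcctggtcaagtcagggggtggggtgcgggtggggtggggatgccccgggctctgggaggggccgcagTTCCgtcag
Ms4a3: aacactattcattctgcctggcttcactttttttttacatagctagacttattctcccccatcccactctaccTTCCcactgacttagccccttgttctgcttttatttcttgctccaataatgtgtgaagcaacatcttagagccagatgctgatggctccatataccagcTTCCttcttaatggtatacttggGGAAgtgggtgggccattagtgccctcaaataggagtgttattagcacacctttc
F630028O10Rik: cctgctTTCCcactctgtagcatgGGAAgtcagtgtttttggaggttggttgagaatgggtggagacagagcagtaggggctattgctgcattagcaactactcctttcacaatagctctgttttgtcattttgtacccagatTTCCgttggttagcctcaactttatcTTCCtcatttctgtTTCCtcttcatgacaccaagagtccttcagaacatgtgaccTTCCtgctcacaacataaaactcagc
On both strands together there were 2 matches to GGAA in the Angptl2 window, 2 in that of Wnt10b, 3 in that of Ms4a3 and 6 in that of F630028O10Rik. A median of 3 matches was found over 32851 RefSeq promoters of the same length, of which 93.4% held at least 1. The longer ETS words CCGGAAGT and AGGAAGT, both of which contain GGAA, had 0 matches in all 4 windows and occurred in 2.88% and 7.69% of all promoters. These letters are a description of the windows and not of binding. The RefSeq start of Angptl2 lies 108 bases from the GENCODE M21 start, whereas for the other 3 genes both annotations give the same start.

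Libraries held 14301683 to 18607595 counted reads. The Etv6 level was 99.1 ± 12 CPM (counts per 1000000 counted reads, on scaled library sizes; mean ± SD, n = 3 in this and all later values) in I209S P214L cells, 109 ± 11.4 CPM in ETV6 WT cells, 103 ± 4.64 CPM in P214L cells and 81.7 ± 5.03 CPM in ZsGreen cells. The species of the ETV6 constructs is not given in the sources used here, so these mouse Etv6 counts may or may not include reads of the constructs. Nras stayed between mean levels of 76.5 and 80.9 CPM in the 4 groups. Of 18 B lineage markers, 8 had no count in any library, among them Vpreb2, Rag1 and Il7r. The 3 with enough reads to test were Cd79a, Cd79b and Ighm. Cd79b averaged 6.93 CPM in I209S P214L, 7.07 CPM in ETV6 WT, 11.6 CPM in P214L and 9.33 CPM in ZsGreen cells. Vpreb1 had 38 reads over all libraries. The summed level of these 18 markers was 7.39 to 10.2 CPM in I209S P214L libraries, 9.63 to 10.6 CPM in ETV6 WT libraries, 13.1 to 15.7 CPM in P214L libraries and 9.48 to 17.2 CPM in ZsGreen libraries. The first ZsGreen library stood apart on the second principal component, which held 14.2% of the variance. The first ETV6 WT and first I209S P214L libraries also lay apart from their groups there, and their 18S ribosomal RNA shares of 1.58% and 1.35% were the lowest in a range up to 5.90%.

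Levels of the 4 genes fell into 3 patterns. Angptl2 and Wnt10b were high in I209S P214L, lower in ETV6 WT and far lower in P214L and ZsGreen cells. There Wnt10b was near its floor, while Angptl2 was still clearly detected. Ms4a3 ran the other way, highest in P214L and lowest in I209S P214L cells. F630028O10Rik was high in P214L cells, with the other 3 groups closer together. The plot of levels by library shows all 12 values of each gene.

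**Figure D1:**
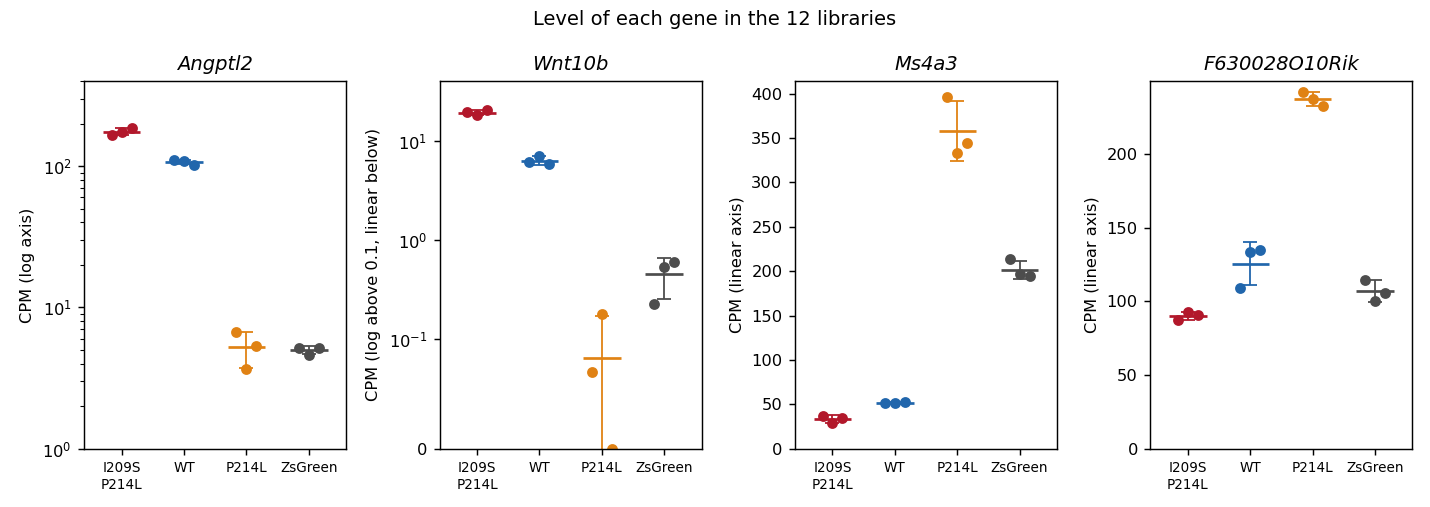
Level in CPM of each gene in every library, by group, with points for libraries, bars for the mean of 3 and whiskers for the SD. The Angptl2 axis is logarithmic, the Wnt10b axis is logarithmic above 0.1 CPM and linear below it, and the other axes are linear; Angptl2 averaged 176 CPM in I209S P214L and 4.97 CPM in ZsGreen cells, and Ms4a3 averaged 358 CPM in P214L and 33.3 CPM in I209S P214L cells.

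In the fit of I209S P214L against ETV6 WT that chose the genes, 5 of 14794 genes were called at an adjusted p under 0.05, or 0.0338% of genes tested. All adjusted p-values are Benjamini-Hochberg values of edgeR's quasi-likelihood test over all 14794 genes. Called higher in I209S P214L were Angptl2 (log2 fold change 0.72) and Wnt10b (1.61), with 0.0135% of all genes called higher. Called lower were Ms4a3 (-0.63) and F630028O10Rik (-0.48), with 0.0203% of all genes called lower. Libraries of the 2 groups did not overlap for any of the 4 genes, nor for 8.33% of all genes tested. F630028O10Rik lay just inside the threshold, with an adjusted p of 0.0450. The first gene outside was Plek, a platelet and leukocyte protein, at 0.194. The authors' deposited table, whose ratio is ETV6 WT over I209S P214L, gives log2 fold changes of -0.72 for Angptl2, -1.61 for Wnt10b, 0.63 for Ms4a3 and 0.48 for F630028O10Rik.

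The other 4 comparisons each involve a group that the choice did not use, but only P214L against ZsGreen has no library in common with it. The 3 comparisons with ZsGreen share their control libraries. The numbers of the 4 genes called were 4 in I209S P214L against P214L (33% of all genes tested were called), 4 in I209S P214L against ZsGreen (41.5%), 4 in ETV6 WT against ZsGreen (37.7%) and 3 in P214L against ZsGreen (5.08%). Wnt10b reached these tests only through its reads in I209S P214L and ETV6 WT cells. Its calls, and its part in the counts of separated groups below, therefore describe it, and no test is drawn from them. Of the 3 calls in P214L against ZsGreen, this leaves those of Ms4a3 and F630028O10Rik. By direction, 15.9% of all genes were called higher and 17.1% lower in I209S P214L against P214L. These shares were 20.8% and 20.7% in I209S P214L against ZsGreen, 19.5% and 18.2% in ETV6 WT against ZsGreen, and 3.47% and 1.61% in P214L against ZsGreen. Libraries of the compared groups did not overlap for 4 of the 4 genes in I209S P214L against P214L (48.2% of all genes tested), 4 in I209S P214L against ZsGreen (47.8%), 3 in ETV6 WT against ZsGreen (46.2%) and 3 in P214L against ZsGreen (25.7%). In the first 3 of these comparisons, calls and separated groups were thus common among all genes.

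**Figure D2:**
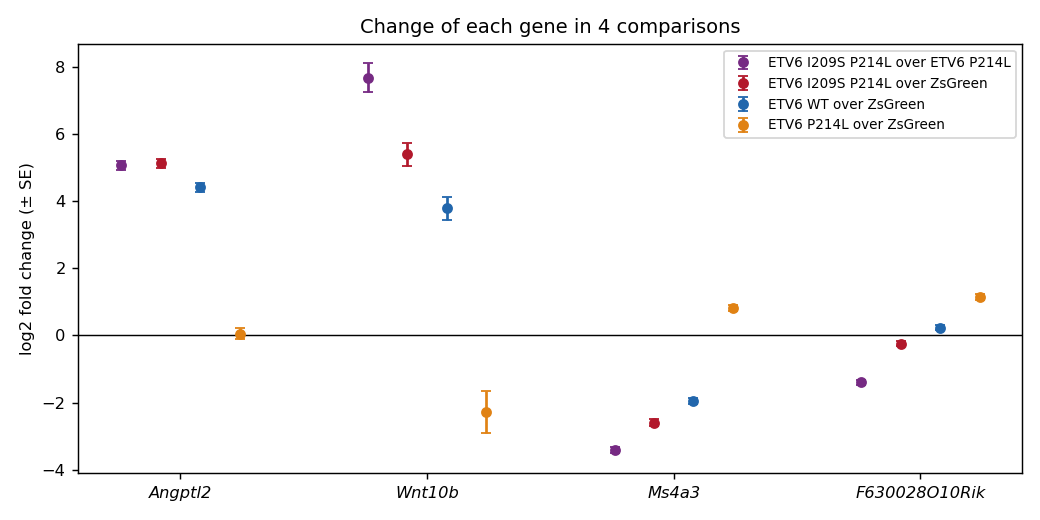
log2 fold change with its SE for each gene in the 4 comparisons that did not choose it, with the first-named group over the second. Wnt10b spans the widest range, at 7.69 in I209S P214L over P214L and -2.29 in P214L over ZsGreen, and F630028O10Rik stays within 1.39 of 0.

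Angptl2 (ENSMUSG00000004105; chromosome 2, 33106081 to 33137729, plus strand, mm39) was transcribed at 165, 175 and 187 CPM in the I209S P214L libraries. It had 110, 109 and 102 CPM in the ETV6 WT libraries, 6.65, 3.66 and 5.36 CPM in the P214L libraries and 5.14, 4.60 and 5.17 CPM in the ZsGreen libraries. I209S P214L and ETV6 WT libraries did not overlap, both groups lay far above the other 2, and P214L and ZsGreen libraries overlapped. The log2 fold change over ZsGreen was 5.14 ± 0.13 in I209S P214L (adjusted p = 1.19e-14) and 4.42 ± 0.13 in ETV6 WT (adjusted p = 1.05e-13), with SE after the sign. P214L did not pass the test against ZsGreen, at 0.06 ± 0.16 (adjusted p = 0.907). I209S P214L rose over P214L by 5.08 ± 0.13 (adjusted p = 2.93e-14), a 33.9-fold difference.

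Scaled by gene length, the Angptl2 level per kilobase exceeded that of 87.7% of genes tested in I209S P214L cells, against 20.8% in ZsGreen cells. Angptl2 lies within the span of Ralgps1, a gene on the opposite strand that encodes a Ral exchange factor. The labels' library protocol covers both directional and non-directional preparation, so reads of the pair may not be separable. Ralgps1 had 19.4 ± 2.39 CPM in I209S P214L, 17.8 ± 0.777 CPM in ETV6 WT, 11.3 ± 1.04 CPM in P214L and 10.5 ± 1.35 CPM in ZsGreen cells. It rose against ZsGreen in I209S P214L, by 0.88 ± 0.15 (adjusted p = 8.59e-05), and in ETV6 WT, by 0.76 ± 0.15 (adjusted p = 0.000420). The Ralgps1 level was far below the Angptl2 level in the I209S P214L and ETV6 WT groups. In P214L and ZsGreen cells it was above the Angptl2 level, which averaged 5.23 and 4.97 CPM there. Whether Ralgps1 reads enter these low Angptl2 values, on which the fold changes rest, was not tested.

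Among 10 angiopoietin and angiopoietin-like ligands, 6 had enough reads to test. Against ZsGreen, 1 rose and 3 fell in I209S P214L (20.8% and 20.7% of all genes), and 1 rose and 1 fell in ETV6 WT (19.5% and 18.2%). The medians were -0.20 and -0.15. In P214L edgeR called 0 of the 6 (5.08% of all genes, median 0.04), where 1 was lower at an unadjusted p under 0.05 and 1 was called lower by DESeq2 and by limma-voom. The rise was Angptl2 itself. The count of 4 calls in I209S P214L ranged from 2 to 5 over the alternative settings, and the low-level Angpt2 lost its call in 6 of 20. Angpt1, a ligand of the receptor TIE2, was at 300.5 ± 5.25 CPM in I209S P214L and 577 ± 10.1 CPM in ZsGreen cells, and fell by 0.94 ± 0.06 (adjusted p = 1.14e-09). Angptl4, an inhibitor of lipoprotein lipase, fell by 0.45 ± 0.17 in I209S P214L (adjusted p = 0.0468), a call that 13 of 20 alternative settings ended, with adjusted p up to 0.158.

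Of 8 genes listed as ANGPTL2 receptors or relatives of them, 7 could be tested. Against ZsGreen, 5 rose in I209S P214L (20.8% of all genes were called higher), 5 in ETV6 WT (19.5%) and 3 in P214L (3.47%). No fall was called by edgeR, where 20.7%, 18.2% and 1.61% of all genes were called lower. At an unadjusted p under 0.05, 1 was lower in I209S P214L and 1 in ETV6 WT, and DESeq2 called 1 lower in ETV6 WT. Their median log2 fold changes were 0.57, 0.57 and 0.28, against medians over all genes of 0.03, 0.03 and 0.01. Pirb, the PIRB receptor, had 5.26 ± 0.694 CPM in I209S P214L, 5.20 ± 0.758 CPM in ETV6 WT, 7.35 ± 0.678 CPM in P214L and 2.22 ± 1.04 CPM in ZsGreen cells, and rose against ZsGreen in all 3. Lilrb4a and Lilrb4b are near-identical paralogs of inhibitory receptors, whose reads may be split between them, and Lilrb4a rose by 3.14 ± 0.21 in I209S P214L (adjusted p = 2.61e-09). Both are in each count of rises, so their calls are not independent of each other. Itga4, an integrin alpha chain of leukocytes, rose by 0.57 ± 0.09 in I209S P214L (adjusted p = 5.50e-05). Other integrin chains of the list differed less. Itga5 was at 77.4 ± 3.12 CPM in I209S P214L, 77.5 ± 9.14 CPM in ETV6 WT and 72.2 ± 7.05 CPM in ZsGreen cells. Itgb1 averaged lower in these 2 ETV6 groups, at 188 ± 12.3 and 187 ± 5.58 CPM, against 207 ± 7.39 CPM in ZsGreen cells.

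Wnt10b (ENSMUSG00000022996; chromosome 15, 98668593 to 98676031, minus strand, mm39) was read 360, 258 and 330 times in the I209S P214L libraries. It was read 99, 123 and 110 times in the ETV6 WT libraries, 1, 3 and 0 times in the P214L libraries and 4, 8 and 10 times in the ZsGreen libraries. On the scaled level this is 19.2 ± 1.14 CPM in I209S P214L, 6.30 ± 0.622 CPM in ETV6 WT, 0.0822 CPM on average in P214L and 0.453 ± 0.200 CPM in ZsGreen cells. The 4 groups did not overlap, and Wnt10b was kept for testing through the 2 groups where it is high. The counting ratio over ZsGreen was 43.2 in I209S P214L (95% exact interval 28.4 to 69.2) and 14.1 in ETV6 WT (9.17 to 22.8). These intervals cover counting error only.

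The log2 fold change of Wnt10b over ZsGreen was 5.40 ± 0.33 in I209S P214L (adjusted p = 7.23e-10) and 3.79 ± 0.34 in ETV6 WT (adjusted p = 8.40e-08). Because the gene was kept for testing through these 2 groups, the values describe it and no test is drawn from them. I209S P214L rose over P214L with a counting ratio of 224 (95% exact interval 87.4 to 826), from 948 reads in I209S P214L and 4 reads in P214L. P214L held 4 reads against 22 in ZsGreen, a ratio of 0.192 (95% exact interval 0.0482 to 0.566), and the fitted log2 fold change was -2.29 ± 0.62 (adjusted p = 0.0404). Since the gene was tested only because of its reads in the other 2 groups, no fall is drawn from this value. The call was lost with limma-voom (adjusted p = 0.305) and in 7 of the 12 fits that leave out 1 library (adjusted p up to 0.150). Those were the fits without ZsGreen library 2 or 3, ETV6 WT library 2, P214L library 1 or 3, or I209S P214L library 2 or 3.

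Of 22 Wnt ligands and secretion genes, 5 could be tested, and the other 17 had too few reads. Against ZsGreen, 2 rose and 1 fell in I209S P214L (20.8% and 20.7% of all genes) and in ETV6 WT (19.5% and 18.2%). In P214L 1 was called higher (3.47%) and 1 lower (1.61%). The medians were -0.04, -0.22 and -0.48 in this order. The calls include Wnt10b itself in all 3, as the 1 lower in P214L, and the P214L count of 2 lay between 0 and 2 over the alternative settings. Wls, the carrier that takes Wnt proteins to the cell surface, was at 115 ± 2.72 CPM in I209S P214L, 115 ± 3.68 CPM in ETV6 WT, 117 ± 3.92 CPM in P214L and 100.3 ± 3.10 CPM in ZsGreen cells, and rose against ZsGreen in all 3. These small rises lost their calls in 5 of 20 alternative settings in I209S P214L, 4 in ETV6 WT and 12 in P214L, where every fit without 1 P214L or ZsGreen library ended the call. Wnt6, a further Wnt ligand, fell by 0.65 ± 0.23 in I209S P214L (adjusted p = 0.0280), a call that 6 of 20 alternative settings ended, with adjusted p up to 0.347. Those were the fit of only these 2 groups, the fits without ZsGreen library 1 or I209S P214L library 1 or 3, and both that left out several libraries.

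Among 20 Wnt receptors and co-receptors, 8 could be tested. Against ZsGreen, 2 rose and 3 fell in I209S P214L (20.8% and 20.7% of all genes). In ETV6 WT 1 rose and 3 fell (19.5% and 18.2%), and in P214L 1 rose and 1 fell (3.47% and 1.61%). The medians were 0.00, -0.11 and 0.02. Lgr4, a receptor for R-spondins, was at 33.0 ± 1.96 CPM in I209S P214L, 31.3 ± 3.19 CPM in ETV6 WT, 22.1 ± 2.22 CPM in P214L and 14.7 ± 2.20 CPM in ZsGreen cells. It rose against ZsGreen in all 3, though in P214L not without ZsGreen library 3 or P214L library 3 (adjusted p up to 0.0854). Fzd4, a Frizzled receptor, fell by 0.76 ± 0.14 in I209S P214L (adjusted p = 0.000295), and Znrf3, which removes Frizzled receptors from the membrane, fell by 0.73 ± 0.21 (adjusted p = 0.00994). The Znrf3 fall did not pass without the first libraries of ZsGreen, ETV6 WT and I209S P214L together (adjusted p = 0.105).

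Of 17 genes of the beta-catenin core, 14 were tested. Against ZsGreen, 5 rose and 1 fell in I209S P214L (20.8% and 20.7% of all genes), and 7 rose and 1 fell in ETV6 WT (19.5% and 18.2%). The medians were 0.23 and 0.25. In P214L edgeR called 0 of the 14 (5.08% of all genes, median -0.02), as did DESeq2 and limma-voom, and 1 was higher at an unadjusted p under 0.05. Ctnnb1, which encodes beta-catenin, was at 1905 ± 28.6 CPM in I209S P214L, 1673 ± 51.2 CPM in ETV6 WT, 625 ± 36.5 CPM in P214L and 626 ± 9.66 CPM in ZsGreen cells. Its log2 fold change over ZsGreen was 1.61 ± 0.06 in I209S P214L (adjusted p = 6.12e-13) and 1.42 ± 0.06 in ETV6 WT (adjusted p = 3.34e-12). Tcf7, a TCF factor, had 2.98 ± 0.499 CPM in I209S P214L, 1.80 ± 0.351 CPM in ETV6 WT, 0.261 ± 0.176 CPM in P214L and 0.127 ± 0.110 CPM in ZsGreen cells. It had 145 reads in I209S P214L and 94 in ETV6 WT, against 12 in P214L and 6 in ZsGreen cells. Tcf7 was thus tested only through the groups where it is high. Its part in the counts above describes it, and no test is drawn from it. Bcl9l, a beta-catenin co-activator, fell by 0.86 ± 0.11 in I209S P214L (adjusted p = 4.86e-06).

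Of 13 genes known to be switched on by beta-catenin as feedback or targets, 5 were tested. Against ZsGreen, 1 rose and 2 fell in I209S P214L (20.8% and 20.7% of all genes) and in ETV6 WT (19.5% and 18.2%). In P214L 1 fell (1.61%). The P214L fall was Znrf3, whose call was lost in 6 of 20 settings, among them the fits without any 1 P214L library or ZsGreen library 1 or 2 (adjusted p up to 0.125). The medians were -0.22, 0.31 and -0.09. The rise was Tcf7, which is also in the core list. Since Tcf7 was tested only through its reads in I209S P214L and ETV6 WT cells, no test is drawn from it. Myc, a growth regulator, was at 106 ± 8.74 CPM in I209S P214L, 112 ± 15.5 CPM in ETV6 WT, 176 ± 7.19 CPM in P214L and 188 ± 5.76 CPM in ZsGreen cells, and fell against ZsGreen by 0.82 ± 0.09 in I209S P214L (adjusted p = 6.61e-07). Axin2, a widely used readout of the pathway, had 2.82 ± 0.457 CPM in I209S P214L, 4.07 ± 0.666 CPM in ETV6 WT, 2.99 ± 0.668 CPM in P214L and 3.30 ± 1.86 CPM in ZsGreen cells, and passed no test.

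**Figure D3:**
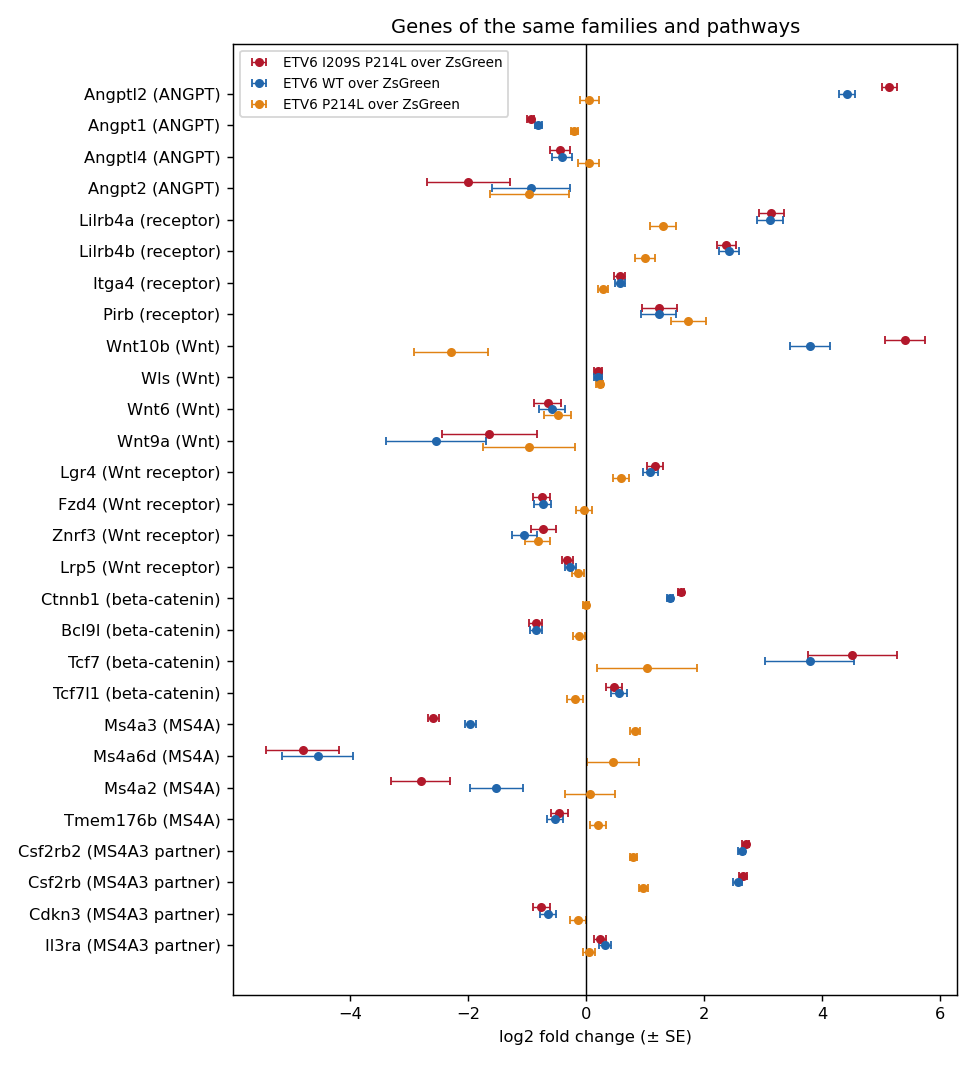
log2 fold change with its SE over ZsGreen for the named genes of the ligand, receptor and pathway lists, in I209S P214L, ETV6 WT and P214L. Ctnnb1 lies at 1.61 in I209S P214L, 1.42 in ETV6 WT and -0.00 in P214L, and Lilrb4a at 3.14, 3.11 and 1.31 in the same groups.

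Ms4a3 (ENSMUSG00000024681; chromosome 19, 11606860 to 11618215, minus strand, mm39) was at 37.4, 28.5 and 34.1 CPM in the I209S P214L libraries. It was at 51.0, 51.1 and 53.1 CPM in the ETV6 WT libraries, 396, 333 and 345 CPM in the P214L libraries and 213.5, 197 and 195 CPM in the ZsGreen libraries. The 4 groups did not overlap, with P214L highest, then ZsGreen, ETV6 WT and I209S P214L. Against ZsGreen, Ms4a3 fell by 2.59 ± 0.09 in I209S P214L (adjusted p = 8.28e-13) and fell by 1.96 ± 0.09 in ETV6 WT (adjusted p = 2.16e-11). In P214L it rose, by 0.83 ± 0.09 (adjusted p = 1.22e-05), and that rise kept its call in all 20 alternative settings, between 0.74 and 0.87. I209S P214L lay 10.7-fold below P214L (adjusted p = 4.14e-14). Per kilobase, the Ms4a3 level exceeded that of 98.5% of genes tested in P214L cells and of 79.2% in I209S P214L cells.

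Of 21 genes of the MS4A family, 5 could be tested. These were Ms4a2, Ms4a3, Ms4a6d, Tmem176a and Tmem176b. All 5 fell against ZsGreen in I209S P214L (20.7% of all genes were called lower) and in ETV6 WT (18.2%), with medians of -2.59 and -1.52. The count includes Ms4a3 itself, whose own value is the I209S P214L median. Tmem176a and Tmem176b averaged 16.7 and 21.4 CPM in I209S P214L, against 23.0 and 29.3 CPM in ZsGreen cells. Over the alternative settings the count lay between 3 and 5 in I209S P214L and between 4 and 5 in ETV6 WT. Tmem176b lost its I209S P214L call in 1 of 20 settings, and Ms4a2 its ETV6 WT call in 1 of 20. In P214L 1 rose (3.47% of all genes), which was Ms4a3, and the median was 0.20. Ms4a2, the beta chain of the high-affinity IgE receptor, lies 5.8 kb from Ms4a3 on the same strand and had 0.503 ± 0.265 CPM in I209S P214L, 1.22 ± 0.331 CPM in ETV6 WT, 3.69 ± 0.304 CPM in P214L and 3.51 ± 1.37 CPM in ZsGreen cells. Ms4a6d, a family member 24.6 kb away, had 8 reads in I209S P214L, 10 in ETV6 WT, 299 in P214L and 232 in ZsGreen cells. Its log2 fold change over ZsGreen was -4.81 ± 0.62 in I209S P214L (adjusted p = 5.60e-06). In ETV6 WT it was -4.55 ± 0.60 (adjusted p = 8.72e-06). Ms4a6d was tested only through its reads in P214L and ZsGreen cells. These values, and its part in the counts above, therefore describe it, and no test is drawn from them. Ms4a2, Ms4a3 and Ms4a6d lie close together, so their calls on this list are not independent of each other.

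Of 7 listed MS4A3 partners, 5 were tested. Against ZsGreen, 2 rose and 2 fell in I209S P214L (20.8% and 20.7% of all genes). In ETV6 WT 3 rose and 1 fell (19.5% and 18.2%), and in P214L 2 rose (3.47%). The medians were 0.24, 0.32 and 0.04. Il3ra, the IL-3 receptor alpha chain, was called higher in ETV6 WT, a call lost in 5 of 20 settings. Csf2rb and Csf2rb2 encode the common beta chain and the IL-3-specific beta chain of the mouse, and their near-identical sequences leave the split of reads between them uncertain. Csf2rb2 was at 2504 ± 32.4 CPM in I209S P214L, 2391 ± 119 CPM in ETV6 WT, 668 ± 37.0 CPM in P214L and 385 ± 13.0 CPM in ZsGreen cells. It rose over ZsGreen by 2.70 ± 0.06 in I209S P214L, 2.64 ± 0.06 in ETV6 WT and 0.79 ± 0.06 in P214L (adjusted p = 1.57e-15, 4.58e-15 and 1.82e-07). Cdkn3, the phosphatase, fell by 0.76 ± 0.14 in I209S P214L (adjusted p = 0.000291) and fell by 0.65 ± 0.14 in ETV6 WT (adjusted p = 0.00128).

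Ms4a3 is also 1 of 16 genes on the granulocyte-monocyte progenitor list, 7 of which were tested. Against ZsGreen, 2 rose and 3 fell in I209S P214L (20.8% and 20.7% of all genes) and in ETV6 WT (19.5% and 18.2%). The medians were -0.44 and -0.08. In P214L 4 rose (3.47% of all genes, median 0.49), and none was lower by edgeR's adjusted or unadjusted p, by DESeq2 or by limma-voom. Cebpe, a granulocytic transcription factor, was at 204 ± 32.8 CPM in I209S P214L, 217 ± 41.9 CPM in ETV6 WT, 149 ± 3.39 CPM in P214L and 70.9 ± 11.2 CPM in ZsGreen cells, and rose in all 3. Mpo, the neutrophil myeloperoxidase, was at 0.759 ± 0.174 CPM in I209S P214L, 1.08 ± 0.153 CPM in ETV6 WT, 7.72 ± 1.42 CPM in P214L and 6.28 ± 3.09 CPM in ZsGreen cells. It fell by 3.03 ± 0.38 in I209S P214L (adjusted p = 4.76e-06) and fell by 2.53 ± 0.37 in ETV6 WT (adjusted p = 2.56e-05).

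The summed level of 19 neutrophil and monocyte markers was 111 to 149 CPM in I209S P214L libraries, 146 to 162 CPM in ETV6 WT libraries, 247 to 329 CPM in P214L libraries and 129 to 134 CPM in ZsGreen libraries. This sum was highest in P214L, the group where Ms4a3 and F630028O10Rik were highest too. In I209S P214L and ETV6 WT it was mostly Adgre1, at 109 and 127 CPM, against 52.0 CPM in P214L and 19.9 CPM in ZsGreen cells. Apart from Adgre1 and the low-level Csf1r, every tested marker of this list averaged lower in I209S P214L and ETV6 WT than in ZsGreen. Mmp9, for example, averaged 4.24 and 6.10 CPM against 27.3 CPM. Among the defining markers Csf3r had no count in any library, and S100a8 averaged 22.5 CPM in P214L and 4.08 CPM in ZsGreen cells. The part of these cells or markers in the P214L rise of Ms4a3 and F630028O10Rik was not tested. Mast cell and basophil markers, 13 in all and mostly Gata2 by level, summed to 2449 to 2988 CPM in I209S P214L, 2389 to 3057 CPM in ETV6 WT, 1739 to 1820 CPM in P214L and 1791 to 1888 CPM in ZsGreen libraries. This sum was thus higher in the 2 groups where Angptl2 and Wnt10b were high, but the markers went both ways. Among those tested, Gata2, Mitf, Cma1 and Mcpt4 averaged higher in these groups, Ms4a2 and Hdc lower, and Cpa3 neither. In I209S P214L, ETV6 WT, P214L and ZsGreen cells, Mitf was at 37.8, 34.6, 7.32 and 6.87 CPM. In the same order, Ms4a2 was at 0.503, 1.22, 3.69 and 3.51 CPM. Kit averaged 0.0614 CPM or less in every group and Prss34 had no count. The 7 megakaryocyte markers, mostly Itga2b, summed to 637 to 738 CPM in I209S P214L, 748 to 938 CPM in ETV6 WT, 824 to 885 CPM in P214L and 997 to 1061 CPM in ZsGreen libraries. Their part in the results was not tested.

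F630028O10Rik (ENSMUSG00000078122; chromosome X, 95283498 to 95287267, plus strand, mm39) was at 87.0, 92.6 and 90.8 CPM in the I209S P214L libraries. It was at 109, 133 and 135 CPM in the ETV6 WT libraries, 242, 237 and 232 CPM in the P214L libraries and 115, 100.3 and 106 CPM in the ZsGreen libraries. P214L stood above every other library, I209S P214L lay below every other library, and ETV6 WT and ZsGreen overlapped. P214L rose over ZsGreen by 1.15 ± 0.08 (adjusted p = 1.27e-07), and the call held in all 20 alternative settings, between 1.10 and 1.20. I209S P214L fell against P214L by 1.39 ± 0.08 (adjusted p = 4.35e-10).

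The remaining 2 changes of F630028O10Rik were small. I209S P214L fell against ZsGreen by 0.25 ± 0.08 (adjusted p = 0.0209), which did not pass without the first ZsGreen library (adjusted p = 0.0813) or without the first I209S P214L library (0.0630). ETV6 WT rose over ZsGreen by 0.23 ± 0.08 (adjusted p = 0.0293), a call lost in 9 of 20 alternative settings, with adjusted p up to 0.159. Those include the fits without ZsGreen library 2 or 3, ETV6 WT library 2 or 3, any 1 P214L library or I209S P214L library 3. Without the first ETV6 WT library the change was 0.33 (adjusted p = 0.00117), and with only these 2 groups in the fit the adjusted p was 0.108. The nearest tested gene, Msn, which encodes the membrane linker moesin, lies 71.3 kb away and was called in none of the 4 comparisons.

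The pattern of each gene over the 12 libraries was compared with that of 12556 genes of at least 1 CPM, by the root mean square difference of centred log2 CPM. This is a description over libraries that share groups. Ms4a3 was closest to Nebl, which encodes a nebulin-like actin-binding protein, at 0.176, then to complement C3 at 0.254 and to Erg, an ETS factor, at 0.266. F630028O10Rik was closest to C1ra, a complement protease gene, at 0.143, then to Entpd5 at 0.190 and to the chemokine receptor gene Ccr1 at 0.195. The median difference over all genes was 2.40 for Angptl2, 2.70 for Wnt10b, 1.43 for Ms4a3 and 0.589 for F630028O10Rik.

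Angptl2 was closest to Gsta2, a glutathione transferase gene, at 0.215, to Ephx2, an epoxide hydrolase gene, at 0.325 and to Slc37a2, a sugar phosphate transporter gene, at 0.369. Gsta2 and Ephx2 had 0 counts in the ZsGreen libraries, so that their likeness rests on the added prior count of 2. Slc37a2 was well above 0, at 68.5 ± 9.95 CPM in I209S P214L, 51.3 ± 0.662 CPM in ETV6 WT, 2.64 ± 0.212 CPM in P214L and 3.31 ± 1.03 CPM in ZsGreen cells. The genes nearest to Wnt10b were Hbb-y and Hbb-bs, which encode beta globins, and Gfy, at 0.685, 0.706 and 0.765. Hbb-bs shares near-identical sequence with Hbb-bt, so its counts are uncertain. Hbb-y had 0 counts in the P214L and ZsGreen libraries and Gfy had 0 in the P214L libraries, so their likeness also rests on the prior count. Ranked by Pearson correlation instead, 1 of the 3 nearest genes was shared for Angptl2, 0 for Wnt10b, 1 for Ms4a3 and 1 for F630028O10Rik.

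**Figure D4:**
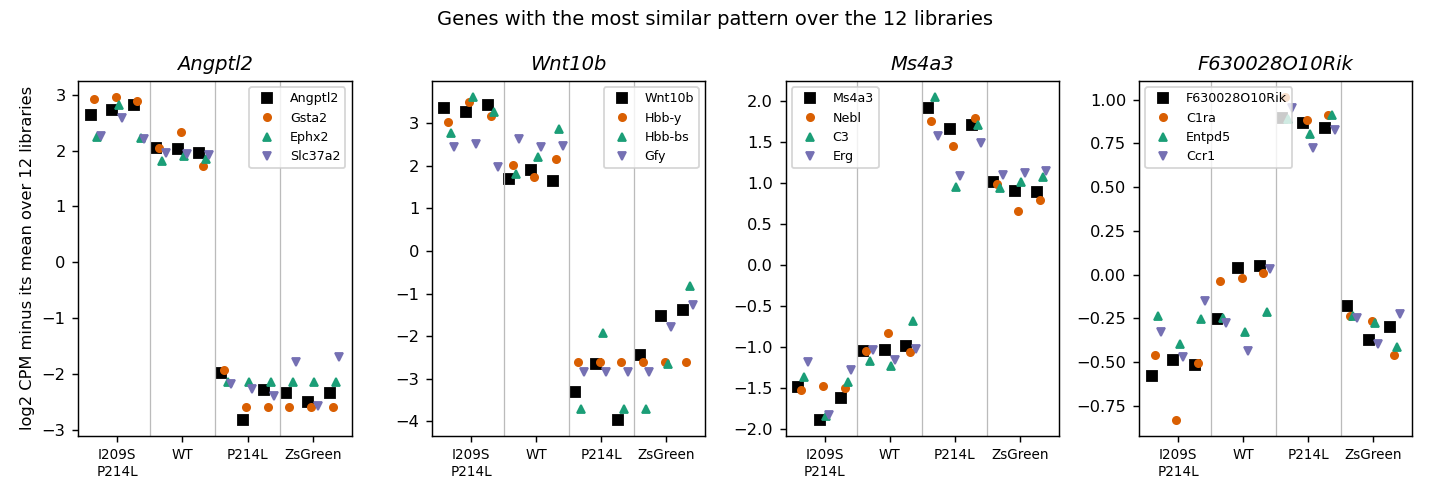
Centred log2 CPM of each of the 4 genes and of the 3 genes nearest to it in pattern, in the 12 libraries ordered by group. Nebl follows Ms4a3 with a root mean square difference of 0.176, and C1ra follows F630028O10Rik with 0.143.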

How the data were processed

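RNA from 12 libraries of Ba/F3 cells, 3 in each of 4 groups, was analysed. Per the labels' protocols, poly-A RNA was selected, and per the submitters' processing notes reads were aligned to mm39 with HISAT2 2.0.5 and counted with featureCounts 1.5.0-p3. The annotation release is not given in the sources used here. The deposited table holds raw read counts per gene, and per the file headers the gene length in bases, used here for levels per kilobase. The authors deposited log2 fold changes and adjusted p-values, used only for the values named as theirs, of which 15 of 23280 genes pass in ETV6 WT against I209S P214L.

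The counts were fitted with edgeR 4.0.16 under R 4.3.3, on genes kept by filterByExpr, with TMM factors and a quasi-likelihood fit of 1 mean per group to all 12 libraries. The SE of a log2 fold change is its size over the square root of the F statistic. Levels are CPM on TMM-scaled library sizes. The comparisons were I209S P214L against ETV6 WT, P214L and ZsGreen, and ETV6 WT and P214L against ZsGreen. Alternatives were DESeq2 1.42.0, limma-voom (limma 3.58.1), other size factors, no filter, a fit of only the groups compared, a replicate block and libraries left out. The fit was tested on simulated data.

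The 4 genes, the gene lists and the tests were chosen with earlier results of these data known. Named genes were the members, their 3 tested neighbours on each side and overlapping genes, the 3 nearest in pattern, up to 4 of each of 9 lists by the test of any difference, and, for I209S P214L against ETV6 WT, the genes called and the next 5, of which 1 gene called is not reported here. Axin2 and the marker genes named outside this rule were chosen after their values were seen. Genes are located by the deposited mm39 positions, while sequences are from RefSeq tables of GRCm38.p6, in which all 4 promoters and both miR-223 arms were found. Replicate numbers pair libraries only where 3 of 3 same-numbered correlations pass 0.1, which no comparison met.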

Additional observations from a re-analysis of the deposited data

How the results depend on the processing

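In all 20 alternative settings no change of a named gene reversed where it was called, and of 7564 alternative values of 76 named genes 7290 stayed on their side of the threshold (values not called may change sign), 191 lost the call and 83 gained it. The number of genes called in I209S P214L against ETV6 WT was 5, and 22 with DESeq2, 38 with no filter, 3 with limma-voom, 3 with only these groups fitted, and 8 without the first ZsGreen, ETV6 WT and I209S P214L libraries. Leaving out 1 library gave 1 to 6, with 1 without library 2 or 3 of ETV6 WT or of I209S P214L. An unadjusted p under 0.05 was reached by 512 genes, or 3.46% of genes tested, a smaller share than the threshold itself. In P214L against ZsGreen 751 genes were called, 1188 with DESeq2, 1224 without the first ETV6 WT and I209S P214L libraries, and 369 to 960 with 1 library left out, with 369, 489 and 390 without P214L library 1, 2 or 3. The cause was not tested. Leaving out 1 library gave 3943 to 5119 genes in I209S P214L against P214L, 5396 to 6378 in I209S P214L against ZsGreen and 4843 to 5736 in ETV6 WT against ZsGreen.

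Among the members, the call of I209S P214L against ETV6 WT was lost in 4 of 20 settings for Angptl2 (adjusted p up to 0.158), 7 for Wnt10b (0.258), 6 for Ms4a3 (0.400) and 14 for F630028O10Rik (0.554). Leaving out library 2 or 3 of ETV6 WT or of I209S P214L ended it for all 4, library 1 of either also for Wnt10b, and for F630028O10Rik so did I209S P214L library 1, ZsGreen library 2 or 3 and any P214L library. Of 900 counts over gene lists, 823 stayed within 1.5 times and 77 did not, 36 of these in P214L against ZsGreen, 24 in I209S P214L against ETV6 WT, 9 in I209S P214L against ZsGreen, 6 against P214L and 2 in ETV6 WT against ZsGreen. The replicate numbers share only a number: the correlation of same-numbered deviations was 0.0786 to 0.528 between I209S P214L and ETV6 WT and -0.0476 to 0.0963 in the other 4 comparisons. With the replicate block, 4 genes were called in I209S P214L against ETV6 WT, 5102 against P214L, 6357 against ZsGreen, 5790 in ETV6 WT against ZsGreen and 881 in P214L against ZsGreen, and F630028O10Rik lost its call against ETV6 WT (adjusted p = 0.0569). Every library correlated best with its own number only in ETV6 WT against ZsGreen, in 6 of 6, a hint from the data and not from the design. Wnt10b in P214L against ZsGreen could not be fitted with only the groups compared, where it did not pass the filter, and its 4 reads in P214L and 22 in ZsGreen limit that value.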

Other observations

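Next to the 5 genes called in I209S P214L against ETV6 WT, the next 5 by adjusted p were Plek, Klf10, F5, Lmo2 and Atp6v1h. F5, the coagulation factor V gene, had 9.51 ± 1.87 CPM in I209S P214L, 15.6 ± 2.46 CPM in ETV6 WT, 19.9 ± 1.21 CPM in P214L and 30.4 ± 2.09 CPM in ZsGreen cells (SD, n = 3). Lmo2, a blood transcription co-factor, had 14.8 ± 0.971 CPM in I209S P214L, 20.5 ± 1.68 CPM in ETV6 WT, 66.0 ± 2.26 CPM in P214L and 78.0 ± 7.62 CPM in ZsGreen cells. Klf10, a Krüppel-like factor, had 192 ± 1.36 CPM in I209S P214L, 153 ± 7.63 CPM in ETV6 WT, 66.9 ± 1.43 CPM in P214L and 46.3 ± 3.6 CPM in ZsGreen cells.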
